A study of Homo sapiens with 15 samples.

Results

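The sites described here are FOXA1 peaks that appeared when doxycycline switched on an extra copy of FOXA1, whether that copy was wild type (WT) or carried the C258A change. A site was taken from the WT list with doxycycline and DMSO if it overlapped, by at least 1 bp, a peak of the C258A list with doxycycline and DMSO. It also had to be absent from both lists made without doxycycline and from all 6 lists of parental cells. The rule gave 6480 sites, 20.4% of the 31735 peaks of the WT list. They are called new sites of both forms below. The sites were thus chosen by calls in these 10 lists, so their number, their scores and widths in the WT and C258A DMSO lists and their absence from the other 8 lists are descriptions.

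FOXA1 is a forkhead transcription factor that can bind its DNA sites in closed chromatin and make them accessible to other factors, which is why it is called a pioneer factor. In prostate cells it prepares enhancers for the androgen receptor. The cysteine replaced by alanine in the C258A form lies in the forkhead DNA-binding domain, the fold that reads the DNA.

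Binding was profiled by ChIP-seq (sequencing of DNA pulled down with an antibody) in 22Rv1 cells, a human prostate carcinoma line. The engineered cells stably overexpressed Y36C-PHF5A, a form of a splicing factor subunit known to give resistance to pladienolide B (PladB), and carried doxycycline-inducible WT FOXA1 or doxycycline-inducible C258A FOXA1. Both lines therefore carried Y36C-PHF5A in all their groups, uninduced ones included. Each engineered line had an uninduced group given DMSO (0.1%), an induced group given DMSO and an induced group given the stereoprobe WX-02-23 at 20 µM. The 6 parental groups were given DMSO, PladB, WX-02-23 (20 µM), a second stereoprobe named WX-02-43 (20 µM), siFOXA1 (an siRNA against FOXA1) and siControl (its control). Compound and DMSO exposures lasted 3 h, and the labels state no time or dose of doxycycline or siRNA, nor whether a line is 1 clone. The dose of PladB is 100 nM in the sample's own label and 10 nM in the shared protocol. The labels give an antibody against FOXA1 and name no tag, so endogenous and induced FOXA1 were read together.

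Each of these 12 groups had 1 library. No difference between conditions could therefore be set against a spread between replicates, and the differences below are untested descriptions. Shares of peaks carry 95% Wilson intervals, which cover counting error only and treat neighbouring peaks as independent. The read depth behind each list was not analysed here. A new site is one that was not called without induction, which is not the same as a site without binding. The lists differed widely in length, from 3018 peaks with siFOXA1 to 34119 with siControl. Without doxycycline, 8575 peaks were listed in WT and 12752 in C258A cells, and with doxycycline and DMSO 31735 and 13299 were. The score of a peak is the authors' own value and was used to rank peaks within a list.

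The new sites of both forms made up most of the new territory of the C258A form and a smaller part of that of the WT form. Of the 31735 WT peaks, 18505 (58.3%) were absent from the 8 lists without induction, and 35.0% (34.3 to 35.7%) of these were also C258A peaks. Of the 13299 C258A peaks, 7294 (54.8%) were absent from those 8 lists, and 6568 of these overlapped a WT peak (95% interval of the share 89.3 to 90.7%). The other 726 new C258A peaks lacked a WT partner. A WT partner was common among C258A peaks of any class, as 12318 WT peaks overlapped the list of 13299 C258A peaks. The exact share over all C258A peaks is not given here, so the share of the new ones is not read as particular to them. The WT list was the longer one: with only its 13299 highest-scoring peaks, the length of the C258A list, 4354 sites met the rule.

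Of the sites found with both forms, slightly more were new than established, but the new share was below that of the whole WT list. Over the whole WT list, 38.8% of peaks (12318) had a C258A partner, which the rule uses. Of these 12318 peaks, 52.6% (51.7 to 53.5%) were new, against 58.3% of all WT peaks. The other 5838 were called in at least 1 of the 8 lists without induction and are called established sites of both forms. Of those, 3650 were called in all 5 parental lists other than siFOXA1. New WT peaks without a C258A partner numbered 12025 and are called new sites of WT alone. A C258A partner was thus less frequent among new WT peaks, at 35.0%, than among established WT peaks, at 44.1% (43.3 to 45.0%).

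The new sites of both forms were not confined to the weak end of the WT list. Their median score in the WT list was 308, with an interquartile range of 194 to 499 and a highest value of 3148. Established sites of both forms had a median of 455, and new sites of WT alone had a median of 142. The WT list was then cut into 10 bins of equal size by score. New sites of both forms were 33.5% of bin 1, the highest, and 39.3% of bin 2. From there the share was smaller in each further bin, down to 4.69% of bin 10. New sites of WT alone ran the other way, from 2.43% of bin 1 to 61.2% of bin 10. Established sites of both forms also fell, and more steeply, from 62.4% of bin 1 to 1.17% of bin 10. Established WT peaks without a C258A partner rose, from 1.67% of bin 1 to a larger share of bin 10. The opposite trends thus went with having a C258A partner, which the rule demands, and were not particular to new sites. A total of 256 new sites of both forms ranked among the top 1000 WT peaks, and 15 among the top 100.

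In the C258A list the same sites had a median score of 166, with an interquartile range of 120 to 253 and a highest value of 2270. Established sites of both forms had a median of 181 there. A total of 349 new sites had a C258A peak within the top 1000 of that list. Sites with a high score in the WT list tended to have a high score in the C258A list. Across the 6480 sites the Spearman correlation of both scores was 0.58, and across the 5838 established sites it was 0.76. Score and width also move together within a list, with a Spearman correlation of 0.78 between score and width for the new sites, so these are not separate measures. Sites are not independent replicates, and both libraries come from the same parental cell line.

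**Figure D1:**
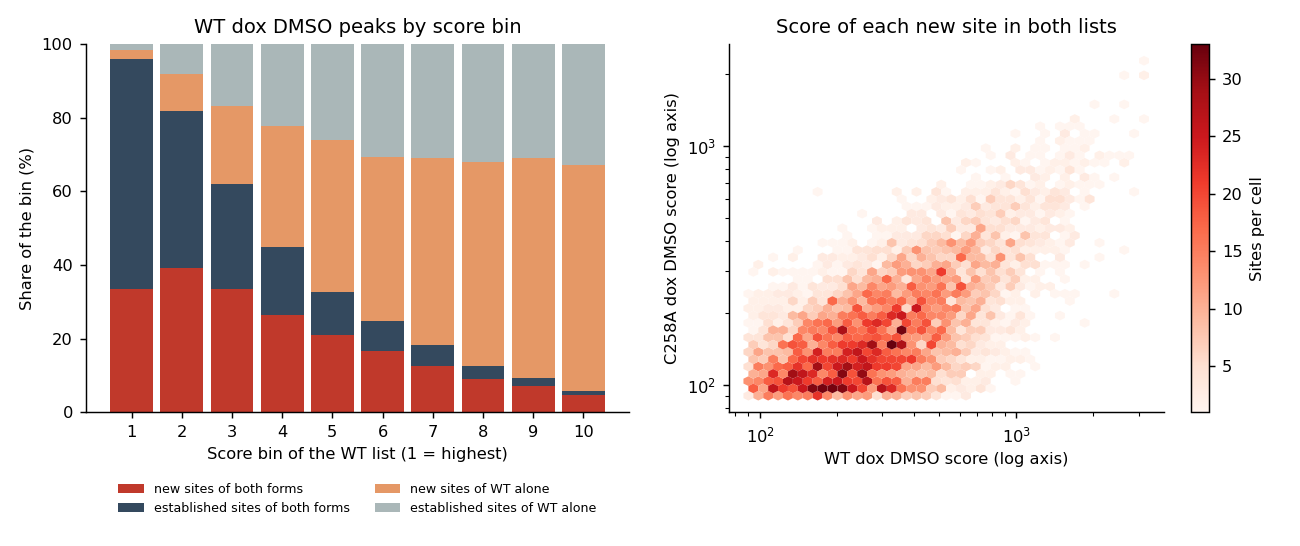
Left, bars give the share (%) of 4 classes of peak in each of 10 bins of the WT list with doxycycline and DMSO, ordered by score with bin 1 the highest; new sites of both forms go from 33.5% and 39.3% in bins 1 and 2 to 4.69% in bin 10. Right, each cell counts new sites of both forms by their WT score (x) and C258A score (y), both on log axes; the cloud rises from lower left to upper right (Spearman correlation 0.58).

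The 10 highest-scoring sites outside chromosome 8 are given by position (hg19, positions counted from 1). All 10 were called in all 4 induced libraries and in none of the other 8. The rule fixes the DMSO calls and the absence from the other 8, so only the WX-02-23 calls were free. Such calls were near the rule in bin 1: 98.6% of new sites of both forms in WT and 99.5% in C258A cells. For established sites of both forms these were 99.3% and 99.6%. Scores of a site in several lists are given side by side, and their sizes are not compared between lists. The highest was chr1:245824429-245826352, a peak of 1924 bp. In WT cells it scored 3148 after DMSO and 1505 after WX-02-23. In C258A cells it scored 1940 after DMSO and 3100 after WX-02-23. The next 3 had the same WT score of 3100. The site chr1:45281993-45282897 lay 2138 bp from a parental DMSO peak and scored 1255 in the C258A DMSO list. The site chr22:28441849-28443170 lay 109240 bp from one and scored 2025 there. The site chr4:180837100-180838143 scored 2270 in that list, the highest C258A value of any new site, and ranked 12 of its 13299 peaks. By that C258A ranking, the order after it was chr22:28441849-28443170 and then chr9:18085106-18086158, with a C258A score of 1940 and a WT score of 2527.

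The remaining 6 of the 10 had WT scores from 2590 to 2902. The site chr5:162115887-162117084 scored 2902 in the WT DMSO list and 1118 in the C258A DMSO list. The site chr7:125340110-125342361 spanned 2252 bp and scored 2865 in the WT DMSO list, 419 in the WT list with WX-02-23 and 645 in the C258A DMSO list. The site chr6:43877628-43878735 scored 2760 and 954 in the WT and C258A DMSO lists. The site chr21:10397249-10399299 scored 2692 and ranked 63 in the WT DMSO list, and scored 373 and ranked 1786 in the C258A DMSO list. The site chr15:71541206-71542328 scored 2627 and 843, and chr7:13198681-13199998 scored 2590 and 918. High rank in one line was thus not always high rank in the other. Genes near these positions, their sequence and their repeat content were not analysed here.

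The peaks of both lines marked the same positions closely. The centres of the WT and C258A peaks of a site lay a median of 38.0 bp apart, with 109 bp at the 90th percentile and 758 bp at most. For established sites of both forms the median was 37.5 bp. At 4735 of the 6480 sites the C258A peak lay wholly within the WT peak. The median width was 699 bp in the WT list and 530 bp in the C258A list, and in the WT list widths ran from 313 to 2275 bp. Established sites of both forms were wider, with a median of 758 bp, and new sites of WT alone were narrower, with 574 bp. The order of widths was the order of scores.

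The new sites of both forms lay about as far from parental DMSO peaks as the new sites of WT alone. Established sites outside parental DMSO peaks lay nearer to them. For the new sites the median gap to the nearest parental DMSO peak was 33623 bp, with an interquartile range of 13088 to 68046 bp. Only 188 sites (2.90%, 2.52 to 3.34%) lay within 1 kb of one, while 79.9% (78.9 to 80.9%) were more than 10 kb away and 14.3% (13.5 to 15.2%) more than 100 kb. A total of 15 sites were more than 500 kb away, the farthest by 1253492 bp.

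The gap was much the same whatever the strength of the site. New sites of WT alone had a median gap of 31083 bp, and 14.2% (13.6 to 14.9%) were more than 100 kb from a parental DMSO peak. In bins of WT score the median gap of the new sites of both forms lay between 24385 bp in bin 10 and 35948 bp in bin 3, with no steady trend from bin to bin. The share within 10 kb lay between 19.0% and 22.0% in all 10 bins. The 597 established sites of both forms without a parental DMSO peak, which another list had kept out, had a median gap of 24160 bp. For the 1315 such established WT peaks without a C258A partner it was 23513 bp. Peaks with a gap of 0 cannot be new, so the full established set gives no fair comparison.

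**Figure D2:**
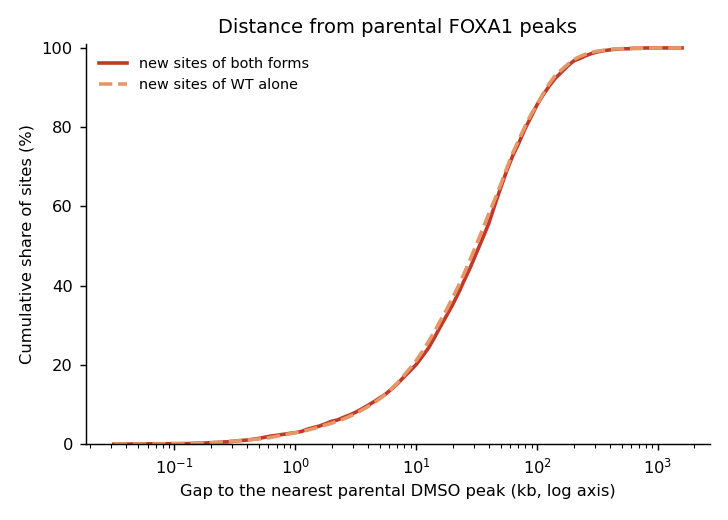
Cumulative share of sites (%) by the gap between their edge and the nearest parental DMSO peak (kb, log axis), for new sites of both forms and new sites of WT alone. Both curves run nearly on top of each other, with medians of 33623 and 31083 bp.

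The median gap from a new site of both forms to the nearest other one was 74196 bp, and a part of these sites lay closer. With 50 kb as the limit, 2633 of them (40.6%, 39.4 to 41.8%) had another such site as a neighbour, and 341 clusters held 3 or more. Established sites of both forms, which were somewhat fewer, had 32.6% (31.4 to 33.8%) with a neighbour of their own class and 190 such clusters. New sites of WT alone, the most numerous class, had 51.1% (50.2 to 52.0%) and 838 clusters. Of all WT DMSO peaks, 76.7% had another WT peak that near. More members mean more neighbours, so the classes were also set against one common list. A new site of WT alone lay within 50 kb of 52.2% (50.9 to 53.4%) of the new sites of both forms and of 44.0% (42.7 to 45.3%) of the established sites of both forms. An established site of both forms lay that near 28.3% (27.3 to 29.5%) of the new sites of both forms, and that near 32.6% of the other established ones. Another WT DMSO peak of any class lay that near 80.3% (79.3 to 81.2%) of the new sites of both forms. For the established sites of both forms the value was 76.5% (75.4 to 77.5%), so the new sites also had more neighbours of any class. By these counts new sites lay near new sites more often than established ones did. The intervals do not overlap, but neighbouring peaks are not independent and the difference was not tested over replicates.

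Sites in clusters differed little in score from solitary ones. The 3847 sites (59.4%) with no neighbour of their class within 50 kb had a median WT score of 297 and a median C258A score of 159. The 1227 sites (18.9%) in clusters of 3 or more had medians of 327 and 185. The solitary sites and those in clusters lay a median of 33293 and 34778 bp from a parental DMSO peak.

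The 3 largest clusters outside chromosome 8 held 13, 13 and 9 sites. The cluster at chr12:86678737-86939581 spanned 261 kb. Its 13 sites had WT scores from 122 to 823 and C258A scores from 96.1 to 500. With WX-02-23, 9 of them were called in WT cells and all 13 in C258A cells, beside the 73.7% and 94.8% given above. The same stretch held 23 WT DMSO peaks and 16 C258A DMSO peaks, but 2 peaks in each line without doxycycline and 4 in parental cells with DMSO.

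The cluster at chr7:125147408-125371568 spanned 224 kb and contained the strong site at chr7:125340110-125342361. Its 13 sites had WT scores from 127 to 2865 with a median of 237, so the strongest site lay far above the middle of the cluster. With WX-02-23, 6 of the 13 were called in WT cells and 13 in C258A cells, beside the 73.7% and 94.8% given above. The stretch held 17 WT DMSO peaks and 18 C258A DMSO peaks, against 2 in each line without doxycycline and 3 in parental cells with DMSO. The cluster at chr1:190342348-190511254 spanned 169 kb. Its 9 sites had WT scores from 148 to 1049, and 7 were called with WX-02-23 in WT cells and 8 in C258A cells. A cluster of the same size at chr18:63207248-63282372 was singled out after its values were seen: 9 sites lay within 75.1 kb, and no peak of any of the 8 lists without induction fell in that stretch.

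**Figure D3:**
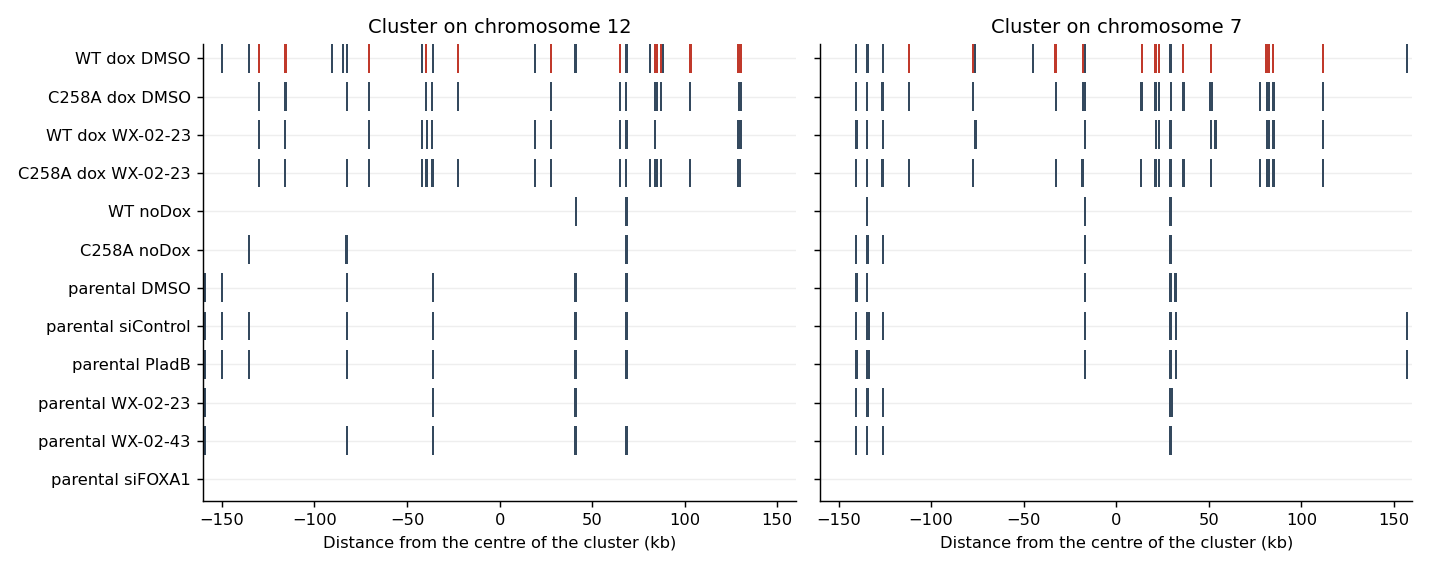
Peaks of all 12 lists (rows) around the centres of the clusters on chromosomes 12 and 7, by distance from the centre (kb); each bar is a peak, drawn at least 1.2 kb wide, and red bars in the top row are the new sites of both forms. The 4 induced rows are filled across both windows, while the rows of uninduced and parental cells hold few peaks and the siFOXA1 row none.

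Of the 1 Mb windows, 79 held 10 or more new sites of both forms and together 1019 sites. Such windows lay on 19 chromosomes, 13 of which had more than 1. Chromosome 1 had 13 of these windows, chromosome 7 had 12 and chromosome 4 had 9. The fullest window, with 25 sites, was chr12:86000001-87000000, which held 46 WT peaks and 11 parental DMSO peaks. Of the 13 windows with 16 or more sites, 6 lay on chromosome 1, all between 188 and 199 Mb, a stretch singled out after its values were seen. It held 165 new sites of both forms, 25.2% of all on the chromosome, and 4.67% of its parental DMSO peaks. The WT list leaned the same way: the stretch held 455 of 3038 WT peaks of the chromosome and 140 of 2999 parental DMSO peaks. New sites of both forms were 36.3% of those WT peaks, against 21.6% of all WT peaks of the chromosome. Without doxycycline, 66 of the 8575 peaks in WT and 103 of the 12752 in C258A cells lay there. Of the 30557 parental DMSO peaks, 140 lay there. The input libraries and the copy number of these stretches were not analysed here, and their part in the counts was not tested.

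All 24 chromosomes held new sites of both forms, in unequal shares. Chromosome 1 had the most, 656, followed by chromosome 4 with 618 and chromosome 7 with 590. As a share of the WT peaks of the chromosome, the highest values were 24.4% (20.8 to 28.5%) on chromosome 21, 23.8% (21.8 to 26.0%) on chromosome 8, 23.8% (17.8 to 30.9%) on chromosome Y and 23.0% (21.4 to 24.7%) on chromosome 7. The lowest was 11.8% (9.33 to 14.7%) on chromosome X. Chromosomes 22, 19, 17, 15 and 16 followed, with 12.6% (8.87 to 17.6%) on chromosome 19 and 16.6% (13.6 to 20.0%) on chromosome 16. The intervals of these 6 chromosomes lie below the 20.4% of the whole list.

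Set against parental binding the spread was wider. Chromosome 21 had 40.8 new sites of both forms for every 100 parental DMSO peaks and chromosome 13 had 33.7, while chromosome 19 had 4.34 and chromosome X had 7.33. The whole WT list leaned the same way, so this spread was not particular to the new sites. WT and parental DMSO peaks numbered 471 and 282 on chromosome 21, and 1455 and 985 on chromosome 13. They numbered 222 and 645 on chromosome 19, and 553 and 887 on chromosome X. New sites of both forms outnumbered established sites of both forms on 15 of the 24 chromosomes. Their ratio was highest on chromosome Y, at 2.00 with 38 against 19 sites. It was 1.55 on chromosome 21 and 1.32 on chromosome 4, and 0.733 on chromosome 17 and 0.720 on chromosome 16. Chromosomes with fewer protein-coding genes per Mb had the larger shares. Across the 24 chromosomes the Spearman correlation of the share of WT peaks with coding gene density was -0.72. Chromosome 19, with 24.5 coding genes per Mb, and chromosome 13, with 2.94, mark the ends of the autosomes. Chromosome X, with 5.46 genes per Mb and the lowest share, did not follow this order. Chromosomes also differ in copy number and base composition, which were not analysed here.

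**Figure D4:**
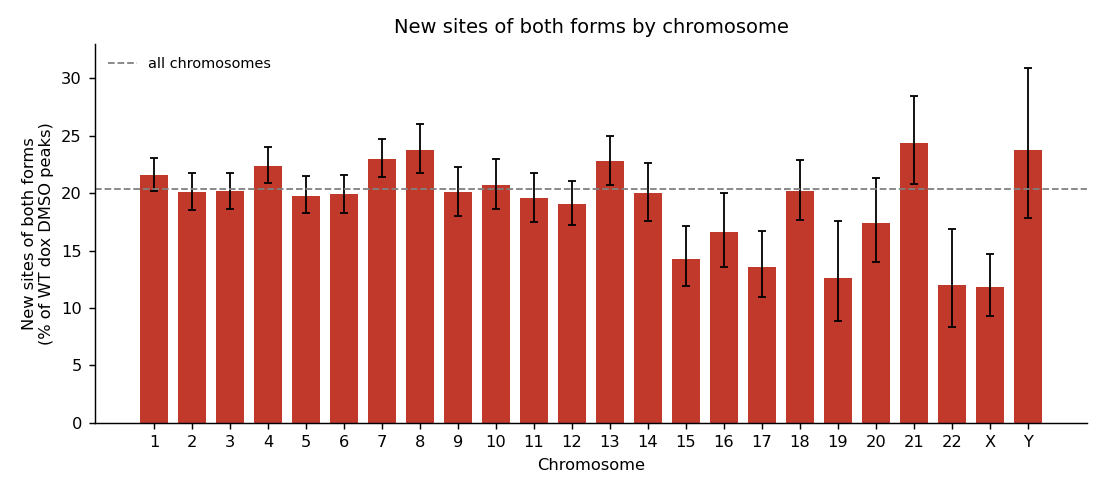
Bars give new sites of both forms as a share (%) of the WT doxycycline and DMSO peaks of each chromosome, with 95% Wilson intervals; the dashed line is the 20.4% of all chromosomes. Chromosomes 15, 16, 17, 19, 22 and X lie below the line with their whole interval, and chromosomes 4, 7, 8, 13 and 21 lie above it.

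The lists made with WX-02-23 in induced cells were not used by the rule and show how often these sites were called in further libraries. Of the 6480 new sites of both forms, 5023 (77.5%, 76.5 to 78.5%) had a peak in the WT WX-02-23 list, against 60.7% of all WT DMSO peaks and 81.9% of the 12318 with a C258A partner. In C258A cells with WX-02-23, 5990 (92.4%, 91.8 to 93.1%) were called, against 55.0% of all WT DMSO peaks, 92.7% of those with a C258A partner and 90.8% of all C258A DMSO peaks. In both WX-02-23 lists 4788 sites (73.9%, 72.8 to 74.9%) were called, against 43.0% of all WT DMSO peaks and 78.4% of those with a C258A partner. Every new site of both forms has a C258A partner, so the peaks with one are the nearer background. Beside them the new sites were called less in the WT list and in both lists, and at nearly the same share in the C258A list. Those 4788 sites were found in all 4 libraries of induced cells and in none of the 8 others. The DMSO calls and the absence from the 8 others were fixed by the rule.

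Established sites of both forms were called at 86.8% (85.9 to 87.7%) in WT and at 93.1% (92.4 to 93.7%) in C258A cells with WX-02-23. New sites of WT alone were called at 44.4% (43.5 to 45.3%) and 26.7% (25.9 to 27.5%). Their lower scores go with these lower shares, so the classes were compared within bins of WT score. In bin 1, 98.6% of the new and 99.3% of the established sites of both forms had a WX-02-23 call in WT cells. In bin 5 the values were 70.6% (67.0 to 73.9%) and 71.5% (66.7 to 75.8%), and the intervals of both classes overlapped in all 10 bins. No gap between new and established sites was thus detectable in WT cells at like WT score, though the lowest bins hold few established sites.

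In C258A cells the classes parted in the lower bins, with intervals that did not overlap in bins 4, 5, 7, 9 and 10. In bin 5, 88.5% (85.9 to 90.7%) of the new and 80.7% (76.4 to 84.4%) of the established sites of both forms were called with WX-02-23. In bin 7 the values were 83.0% (79.0 to 86.4%) and 69.4% (62.4 to 75.7%). Binned by C258A score instead, the classes did not part in C258A cells: in bin 10 of that list the values were 76.2% (72.7 to 79.4%) and 74.1% (69.9 to 77.9%). In the same C258A bin, however, 59.3% (55.4 to 63.1%) of the new and 72.6% (68.3 to 76.5%) of the established sites had a WX-02-23 call in WT cells. Intervals that did not overlap thus appeared in each line when sites were ranked by the score of the other line. They did not appear when sites were ranked by its own. Distance from parental binding went with no such difference in calls. The share called in WT cells with WX-02-23 lay between 76.6% and 78.0% for gaps up to 10 kb, from 10 to 50 kb, from 50 to 100 kb and above 100 kb.

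**Figure D5:**
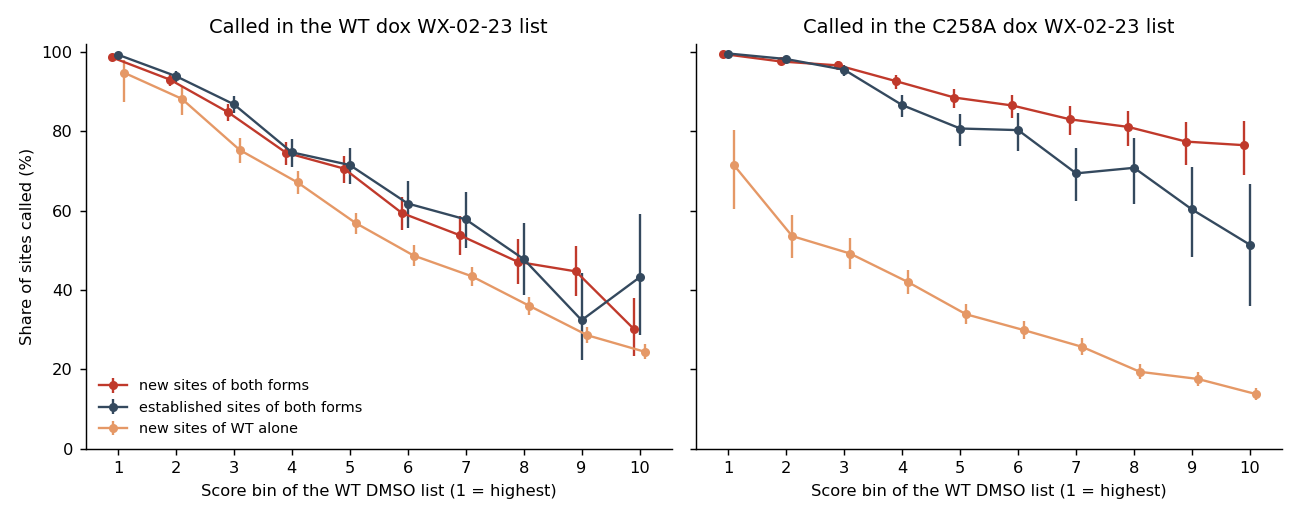
Share of sites (%) called with WX-02-23 in WT cells (left) and in C258A cells (right), by score bin of the WT DMSO list with bin 1 the highest; points are shares, bars 95% Wilson intervals, and 3 classes of site are shown. Left, the intervals of new and established sites of both forms overlap in all 10 bins, with 98.6% and 99.3% in bin 1. Right, new sites of both forms stay at 76.5% in bin 10 while new sites of WT alone reach 13.8%.

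Sites called in only one of the lines with WX-02-23 were mostly called in C258A cells. A total of 1202 sites (18.5%, 17.6 to 19.5%) were called in C258A and not in WT cells with WX-02-23, and 235 (3.63%, 3.20 to 4.11%) the other way round. Over all WT DMSO peaks the order was the opposite, with 12.0% in C258A cells alone and 17.7% in WT cells alone. Over the peaks with a C258A partner it was the same as for the new sites, with 14.3% and 3.52%. Established sites of both forms had 9.63% (8.90 to 10.4%) and 3.39% (2.96 to 3.89%). The 1202 sites had a median WT score of 195 and a median C258A score of 133, below the 369 and 189 of the 4788 sites called in both. Of the sites not called in WT cells with WX-02-23, 82.5% (80.5 to 84.4%) were called in C258A cells. The remaining 255 sites (3.94%) were called in neither line, with medians of 147 and 106.

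List length did not run with this asymmetry: with WX-02-23 the WT list was the longer one, and more sites were called in the C258A list. With WX-02-23 the WT list was shorter than with DMSO, at 25849 against 31735 peaks, and the C258A list was longer, at 20609 against 13299. With both WX-02-23 lists reduced to their 20609 highest-scoring peaks, 70.2% (69.1 to 71.3%) of the sites were called in WT and 92.4% in C258A cells. With all lists at 13299 peaks, a length chosen after the values were seen, 67.2% (66.0 to 68.3%) of the sites were in the WT DMSO list and 55.2% (54.0 to 56.4%) in the WT list with WX-02-23. All were in the C258A DMSO list by the rule, and 79.5% (78.5 to 80.4%) were in the C258A list with WX-02-23. At that length 1956 sites (30.2%) were called in C258A cells alone and 385 (5.94%) in WT cells alone with WX-02-23. The direction was the same for established sites of both forms, with 998 (17.1%) and 298 (5.10%) at that length. At 20609 peaks they had 799 (13.7%) and 152 (2.60%). The share called in C258A cells alone was thus larger for the new sites at both lengths. The asymmetry was thus not confined to new sites and was present at each length tried. For both classes, the choice of sites places each one within the short C258A list and lets it lie anywhere in the long WT list. Whether it comes from the FOXA1 form, the compound or the lists cannot be told apart with 1 library per group.

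Few sites lay close to the limits of the rule. Just inside it were chr7:53193015-53193368, which shared 2 bp with a C258A peak, chr6:74835744-74836149 with 4 bp and chr1:79779973-79780513 with 7 bp. Their WT scores were 108, 114 and 143, and 6 sites in all shared under 100 bp. Just outside it were chr1:176700488-176701127, which shared 7 bp with a parental DMSO peak, chr1:221786530-221787294 with 7 bp of a PladB peak and chr11:40253098-40253571 with 9 bp of a PladB peak. Their WT scores were 317, 242 and 116. A total of 164 sites lay within 500 bp of a peak in one of the 8 lists without induction.

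Of the 5838 established sites of both forms, 412 were kept out by 1 list alone, as follows. The parental WX-02-23 list alone kept out 109, or 6.33 for every 1000 of its peaks, and the C258A list without doxycycline alone 58 (4.55 per 1000 peaks). PladB alone kept out 75 (2.26 per 1000 peaks), siControl alone 92 (2.70), DMSO alone 67 (2.19) and WX-02-43 alone 6 (0.329). The 109 sites were thus called in parental cells with WX-02-23 and in no other parental list or list without doxycycline, and also in both induced lines with DMSO. Their median WT score was 489 and their median C258A score 200. With WX-02-23, 106 of the 109 (97.2%) were called in WT cells and 108 in C258A cells. In bin 2 of WT score, which holds 489, established sites of both forms were called at 93.9% and 98.2%. The 75 sites of PladB alone had medians of 390 and 149, with 60 (80.0%) and 64 (85.3%) called. In bin 3, which holds 390, established sites of both forms were called at 86.8% and 95.5%. Each list has 1 library, so the spread of such counts between repeat libraries is unknown.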

How the data were processed

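Peak lists of 12 FOXA1 ChIP-seq libraries were used, one deposited list per library and no pooled calls. The 3 input samples were not analysed here. Per the submitters' processing notes, bcl2fastq and Bowtie2 were used and the build was hg19. Per the labels' protocols, cells were fixed with 1.1% formaldehyde. Peak names in the files begin with MACS, and the caller's version, threshold and control are not given in the sources used here. The deposited score of a peak is the authors' own value. Its definition is not given in the sources used here, and it was used only within a list.

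Samples were grouped by title. Starts were read as counted from 0 and printed from 1. Overlap, gaps and single-linkage clusters were computed in Python 3.11.15 with numpy 2.4.6 and pandas 2.3.3. The functions were tested on simulated peaks, and bedtools 2.31.1 gave the same 6480 sites. Intervals are 95% Wilson intervals (scipy 1.17.1). Coding genes per chromosome were counted in the RefSeq table of GRCh38.p14, no coordinate of which was used, and divided by the hg19 span of the peaks.

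Named peaks are the 10 highest by WT score, the 3 highest by C258A score and the 3 largest clusters, all outside chromosome 8, and those nearest the limits of the rule. The sites and the comparisons were chosen with earlier results of these data known. No genome or annotation of hg19 was used, so the planned motif, promoter, nearest-gene and gene-list analyses were not run and no sequence is printed. Alternatives changed overlap, score threshold, list length, chromosomes and the excluding lists.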

Additional observations from a re-analysis of the deposited data

How the results depend on the processing

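The 7 results were recomputed in 71 alternatives. In 44 the value stayed within its interval (or, for the number, within 1.5 times of it) and in 27 it moved. The number of sites lay between 4354 and 6694 in all but one alternative. It was 2949 when both induced DMSO lists were limited to their top 50%, where fewer peaks can qualify. That setting gave a median score of 470, a median width of 783 bp, 27.1% of sites within 50 kb of another, and 91.0% and 99.3% called with WX-02-23 in WT and C258A cells. With the WT list cut to the C258A length, the values in the same order were 417, 762 bp, 33.5%, 88.1% and 96.7%. A reciprocal overlap of 50% gave 300, 693 bp, 38.9%, 75.6% and 91.2%. With the C258A peak in place of the WT peak, the median score was 166, on the scale of the other list, and the median width 529 bp. Gaps of up to 500 bp counted as overlap gave 42.1% within 50 kb, and leaving the 3 compound lists out of the exclusion gave 41.8%. With 10 kb and 100 kb as the limit, 16.7% and 57.5% had a neighbour. Both WX-02-23 lists at 20609 peaks gave 70.2% called in WT cells, and at 13299 peaks 55.2% in WT and 79.5% in C258A cells. Equal weight for 10 score bins gave 65.7% in WT and 87.9% in C258A cells. The cause of these shifts was not tested beyond the construction of each setting. The C258A share lay above the WT share in every alternative run, and the median gap to parental peaks stayed in all of its alternatives. Leaving single lists other than siFOXA1 out of the exclusion, and the length of 13299 peaks for the WX-02-23 lists, were chosen after seeing the data. No paired analysis was possible because each group had 1 library. Leaving out a replicate, promoter windows and word searches were not run. Read depth per library was not analysed here, so the depth below which a site goes uncalled is unknown.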
